A study of Mus musculus with 16 samples.

Results

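A set of 8 transcription factors and signalling genes that guide the fate of vomeronasal and olfactory neurons were followed over the 16 libraries of the series. They are Meis2 of the apical neurons, Tfap2e and Bcl11b of the basal programme, the receptor Notch1 and its ligand Dll4, and the pan-olfactory factors Lhx2, Emx2 and Ebf1. The 8 genes were taken by symbol, with no measured value in the rule, and all 8 were found among the 24340 genes present in both the read count tables and the tables of RPKM, which are reads scaled by gene length and library size. The G protein subunit genes Gnai2 of the apical layer and Gnao1 of the basal layer served as outside references.

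The series compared the vomeronasal organ (VNO) of mice bred for high voluntary wheel running (HR) with that of unselected Control mice. There were 4 HR lines (3, 6, 7 and 8) and 4 Control lines (1, 2, 4 and 5), all founded on the outbred Hsd:ICR strain and sampled at generation 88. Each line gave 1 male and 1 female library, and each library was made from the pooled VNOs of 3 mice aged 12 weeks. No mouse carried a transgene or received an agent, and a line is 1 breeding population, so the unit of selection was replicated 4 times in each linetype and individual mice within a pool cannot be resolved.

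Vomeronasal sensory neurons (VSNs) are renewed through life from progenitors of the VNO. Apical VSNs express Gnai2 and receptors of the Vmn1r family, basal VSNs express Gnao1 and receptors of the Vmn2r family, and a newborn neuron enters one or the other class. Notch signalling between newborn cells, with Dll4 as a ligand, has been linked to that choice, Tfap2e is needed to keep the basal identity, and Lhx2, Emx2 and Ebf1 act in the choice and expression of odorant receptor genes in the main olfactory epithelium. The VNO dissected for RNA also holds supporting cells, vessels, connective tissue and blood cells. In such bulk tissue, fewer cells of a type and less RNA per cell cannot be told apart.

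The 8 genes lie on 5 mouse chromosomes (GENCODE annotation on GRCm38), and all are protein coding. On chromosome 2 lie Meis2 (chr2:115863064-116065839, minus strand), Notch1 (chr2:26457903-26516663, minus strand), Dll4 (chr2:119325784-119335962, plus strand) and Lhx2 (chr2:38339281-38369733, plus strand). Tfap2e is at chr4:126716006-126736240 on the minus strand, Bcl11b at chr12:107910403-108003602 on the minus strand, Emx2 at chr19:59458372-59465357 on the plus strand and Ebf1 at chr11:44617317-45008091 on the plus strand. Emx2 shares 264 exon bases with the antisense gene Emx2os, Dll4 shares 214 with Gm14207, and Notch1 shares 1068 with 0610009E02Rik and 414 with Gm13568, all on the opposite strand. The libraries were directional but the sources used here do not say whether the counting used the strand, so reads in those shared bases cannot be assigned with certainty.

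RefSeq start sites (GRCm38.p6) gave 10 windows of 300 bases, from 250 bases before to 50 after the start, for the 8 genes. The 250 bases before the start are shown for Tfap2e, Dll4 and Lhx2, the 3 genes that differed among lines (below) and whose window lies before all transcripts of the gene in GENCODE. Capitals mark the letters TTCCCAC, the reverse complement of the RBPJ motif GTGGGAA that Notch target genes carry, in Tfap2e, and the MEIS motif TGACAG in Dll4. The Lhx2 window held none of the 5 motifs searched and is printed without capitals.
Tfap2e, chr4:126736270-126736519, minus strand: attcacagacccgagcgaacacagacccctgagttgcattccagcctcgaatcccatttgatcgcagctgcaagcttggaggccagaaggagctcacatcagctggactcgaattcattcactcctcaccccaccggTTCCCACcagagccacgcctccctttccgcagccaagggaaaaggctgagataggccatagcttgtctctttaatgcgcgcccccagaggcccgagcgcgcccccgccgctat
Dll4, chr2:119325534-119325783, plus strand: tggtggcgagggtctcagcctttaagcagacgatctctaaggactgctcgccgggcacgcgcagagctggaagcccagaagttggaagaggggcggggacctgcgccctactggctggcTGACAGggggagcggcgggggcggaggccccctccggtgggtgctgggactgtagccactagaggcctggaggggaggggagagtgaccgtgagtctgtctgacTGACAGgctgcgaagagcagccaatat
Lhx2, chr2:38339031-38339280, plus strand: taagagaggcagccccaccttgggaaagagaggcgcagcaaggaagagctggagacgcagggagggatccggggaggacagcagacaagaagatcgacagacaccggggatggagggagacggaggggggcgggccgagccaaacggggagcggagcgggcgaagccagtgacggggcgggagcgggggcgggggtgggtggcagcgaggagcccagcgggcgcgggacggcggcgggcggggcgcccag

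A set of 5 motifs was searched on both strands of the 10 windows, and the share of all 32851 RefSeq windows of that length holding each is given for scale. The RBPJ letters GTGGGAA occurred in windows of Tfap2e and Ebf1 and in 6.38% of all windows. The MEIS letters TGACAG occurred in Dll4 alone, 131 and 27 bases before its start, and in 19.2% of all windows. The AP-2 letters GCCNNNGGC occurred in Bcl11b and in the downstream start of Lhx2, against 16.6% of all windows, and the homeodomain letters TAATTA in Emx2, against 5.29%. The EBF letters CCCNNGGG, the core of its palindromic motif, occurred in Bcl11b and in the downstream start of Lhx2 as well, against 13.7% of all windows, and overlapped no AP-2 match. This core was chosen after a form longer by 1 base at each end had been searched, which occurred in 0 of the 10 windows and in 0.904% of all windows. These are matches of letters, and no binding was measured here.

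The libraries held between 15998552 and 70875276 reads on genes. The 7 members other than Dll4 were each counted at least 509 times in every library, and Dll4 between 68 and 208 times. The tissue was checked against its defining genes. Omp, the marker of mature VSNs, measured 716 to 1410 RPKM, and Trpc2, the VSN channel, measured 259 to 417 RPKM, although Trpc2 was listed at 0 in all 16 libraries of the count tables, where it shares its bases with Xntrpc. The female library of Control line 5 stood apart from the rest, with the lowest summed level of the VSN markers (1290 CPM against 1620 to 2640 CPM in the others, where CPM are counts scaled to 1 common library size by TMM factors) and the highest sum of 11 endothelial markers (277 CPM against 71.4 to 215 CPM). The results that leaned on this library are also given without it or without its line. The list of VSN markers held 3 genes, and its sum was nearly all Omp (1270 to 2600 CPM), with Trpc2 at 0.

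**Figure D1:**
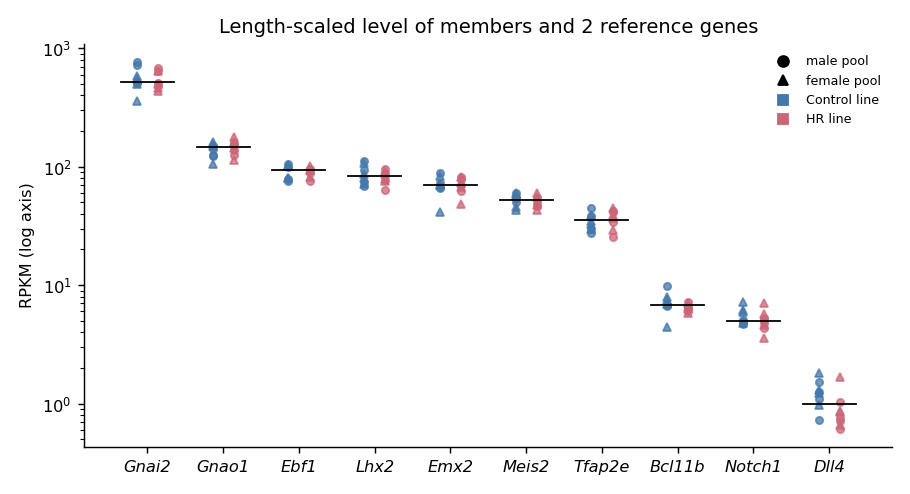
RPKM of the 8 genes and of Gnai2 and Gnao1 in each of the 16 libraries, on a log axis (points, coloured by linetype and shaped by sex; bar, median of 16). The medians fall from 93.1 RPKM for Ebf1 to 0.99 RPKM for Dll4.

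To see how strongly each factor was expressed, levels were compared per gene length. The pan-olfactory factors came highest, with a median over 16 libraries of 93.1 RPKM for Ebf1 (76.0 to 105), 83.6 RPKM for Lhx2 (63.3 to 112) and 70.3 RPKM for Emx2 (41.5 to 88.9). Meis2 followed with 52.6 RPKM (43.2 to 59.8), then Tfap2e with 35.8 RPKM (25.6 to 45.1). Each of these 5 stood above 89.7% or more of all genes by its median. Bcl11b (6.75 RPKM, 4.40 to 9.89) and Notch1 (4.99 RPKM, 3.57 to 7.15) lay far lower, and Dll4 was last at 0.99 RPKM (0.614 to 1.81). The references Gnai2 and Gnao1 had medians of 516 and 146 RPKM.

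The order of the levels was close to fixed. Tfap2e was the fifth and Dll4 the last in all 16 libraries, and 9 libraries had the full order of the medians. The 7 other libraries swapped neighbours, Ebf1 with Lhx2 in 4, Lhx2 with Emx2 in 1, Bcl11b with Notch1 in 1, and both Emx2 with Meis2 and Bcl11b with Notch1 in 1. Lhx2 thus changed places with Ebf1 and with Emx2, while Ebf1 lay above Emx2 in all 16 libraries, although the ranges of these 3 genes overlapped. Emx2 and Meis2, and Bcl11b and Notch1, also overlapped in range. RPKM of Meis2 was 1.19 to 1.84 times that of Tfap2e in every library, with a median of 1.44.

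**Figure D2:**
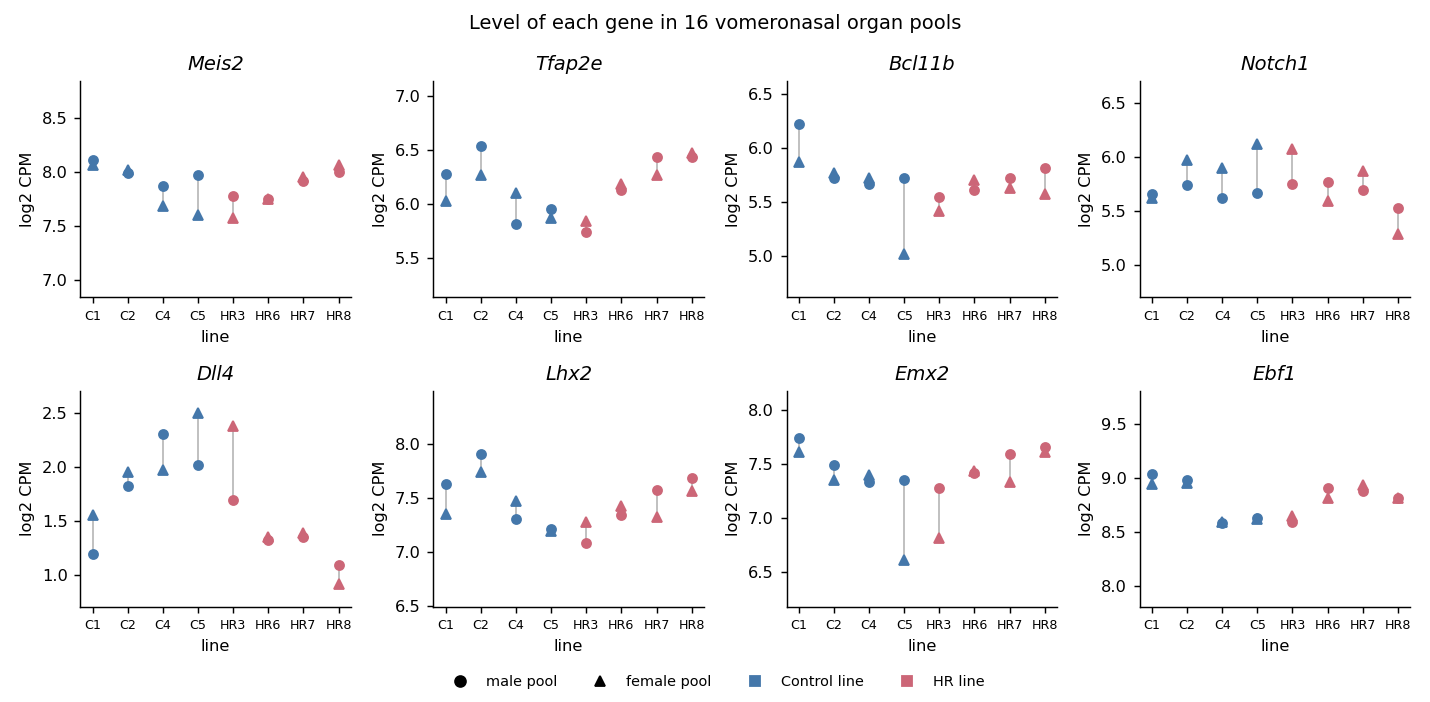
Level of each gene (log2 CPM) in the male (circle) and female (triangle) pool of each Control line (C1, C2, C4, C5) and HR line (HR3, HR6, HR7, HR8), with all panels spanning 2 log2 units. HR and Control lines overlap for all 8 genes, and the spread among lines is widest for Dll4.

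The first comparison asked whether selection for wheel running shifted these factors. None of the 8 genes was called between HR and Control in edgeR's quasi-likelihood test, which held sex as a covariate (Benjamini-Hochberg adjusted p under 0.05 over 16507 genes), against 0.0242% of all genes tested, which is 4 genes. Dll4 alone had an unadjusted p under 0.05, a mark that 3.30% of all genes reached. DESeq2 called none of the 8 either, against 0.182% of all genes. The means of the HR lines and of the Control lines overlapped for all 8 genes, where 0.788% of genes did not overlap. With 4 lines against 4, an exact permutation test over lines cannot go below p = 0.0286, and the lowest among the 8 genes was 0.143, for Dll4.

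Meis2, a homeodomain factor that marks apical VSNs, measured 275, 255, 234 and 251 CPM in the male pools and 268, 260, 207 and 194 CPM in the female pools of Control lines 1, 2, 4 and 5. In HR lines 3, 6, 7 and 8 it measured 220, 215, 242 and 255 CPM in males and 192, 216, 249 and 268 CPM in females. By line mean, Control lines 1 and 2 and HR lines 7 and 8 were the upper 4. With the mean of each sex subtracted from log2 CPM, however, the pools of all 7 neighbouring pairs of lines overlapped. The line means of HR and Control overlapped as well. The mean was 243 ± 25.5 CPM (SD, n = 4 lines) in Control and 232 ± 26.0 CPM (SD, n = 4 lines) in HR, a log2 fold change of -0.06 (SE 0.08, adjusted p = 0.9997 in edgeR, exact permutation p = 0.543 over lines).

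Tfap2e encodes AP-2 epsilon, which is needed for the basal programme. It measured 77.0, 92.4, 56.1 and 61.7 CPM in the males and 65.0, 76.8, 68.6 and 58.3 CPM in the females of Control lines 1, 2, 4 and 5. HR lines 3, 6, 7 and 8 gave 53.5, 69.9, 85.9 and 85.9 CPM in males and 57.2, 72.4, 76.8 and 88.7 CPM in females. The lowest line and the highest line were both HR lines, line 3 and line 8. Control averaged 69.5 ± 11.1 CPM and HR 73.8 ± 14 CPM (SD, n = 4 lines each), with a log2 fold change of 0.09 (SE 0.12) and an exact permutation p of 0.657.

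Bcl11b, a zinc finger factor of the basal programme that T cells also express, ranged from 32.5 to 74.5 CPM. The lowest value was the female library of Control line 5 and the highest the male library of Control line 1. Control averaged 53.6 ± 9.85 CPM and HR 49.5 ± 3.24 CPM (SD, n = 4 lines each), and the log2 fold change was -0.11 (SE 0.11). T cell markers were scarce. The 7 genes of that list summed to 8.99 to 22.4 CPM, most of it Cd247, and the defining genes Cd3d and Cd3e stayed under 1 CPM in all libraries, while Cd3g reached 1.28 CPM and Lck 1.92 CPM. Over the 8 lines, Bcl11b and the mean of the 4 tested genes of the T cell list, without Cd3d, had r = -0.17 (exact permutation p = 0.707, n = 8).

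Dll4 was the weakest member and had the widest spread. Control lines 1, 2, 4 and 5 measured 2.24, 3.49, 4.87 and 4.02 CPM in males and 2.89, 3.81, 3.87 and 5.61 CPM in females. HR lines 3, 6, 7 and 8 measured 3.17, 2.45, 2.51 and 2.07 CPM in males and 5.14, 2.50, 2.57 and 1.83 CPM in females. HR lines 6, 7 and 8 were low in both sexes, but so was Control line 1, and the female pool of HR line 3 was above those of Control lines 1, 2 and 4. Control averaged 3.85 ± 0.983 CPM and HR 2.78 ± 0.953 CPM (SD, n = 4 lines each), which differ by a log2 fold change of -0.47 (SE 0.22) with an unadjusted p of 0.0464 and an adjusted p of 0.9997 in edgeR. The unadjusted p was above 0.05 without Control line 2 or 4 or without HR line 6, 7 or 8, and in the fits with line as a random effect or on line sums.

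Notch1, the receptor, ranged from 38.9 to 69.6 CPM, averaging 55.7 ± 4.55 CPM in Control and 52.4 ± 7.59 CPM in HR (SD, n = 4 lines each). The fitted log2 fold change was -0.08 (SE 0.10). The lowest library was the female pool of HR line 8 and the highest the female pool of Control line 5. Male pools lay within 46.1 to 54.7 CPM in all 8 lines, while female pools covered the full range.

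The means of the pan-olfactory factors differed between linetypes by less than their spread over lines. Lhx2, a LIM homeodomain factor, measured 197, 238, 157 and 148 CPM in males and 164, 213, 177 and 146 CPM in females of Control lines 1, 2, 4 and 5, and 136, 162, 191 and 205 CPM in males and 154, 172, 160 and 189 CPM in females of HR lines 3, 6, 7 and 8. Control line 2 was the highest in both sexes, and Control line 5 and HR line 3 were low. Ebf1, a helix-loop-helix factor, measured 524, 504, 382 and 397 CPM in males and 492, 493, 384 and 393 CPM in females of the Control lines, and 385, 479, 473 and 449 CPM in males and 398, 449, 488 and 449 CPM in females of the HR lines. The male and female pools of a line nearly coincided for Ebf1, with a mean gap of 0.04 on the log2 scale against a range of 0.41 over lines. Log2 fold changes were -0.07 (SE 0.11) for Lhx2, 0.02 (SE 0.13) for Emx2 and 0.00060 (SE 0.086) for Ebf1. Emx2, a homeodomain factor, averaged 168 ± 30.5 CPM in Control and 170 ± 27.0 CPM in HR (SD, n = 4 lines each), with its lowest library, the female pool of Control line 5, at 97.7 CPM.

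**Figure D3:**
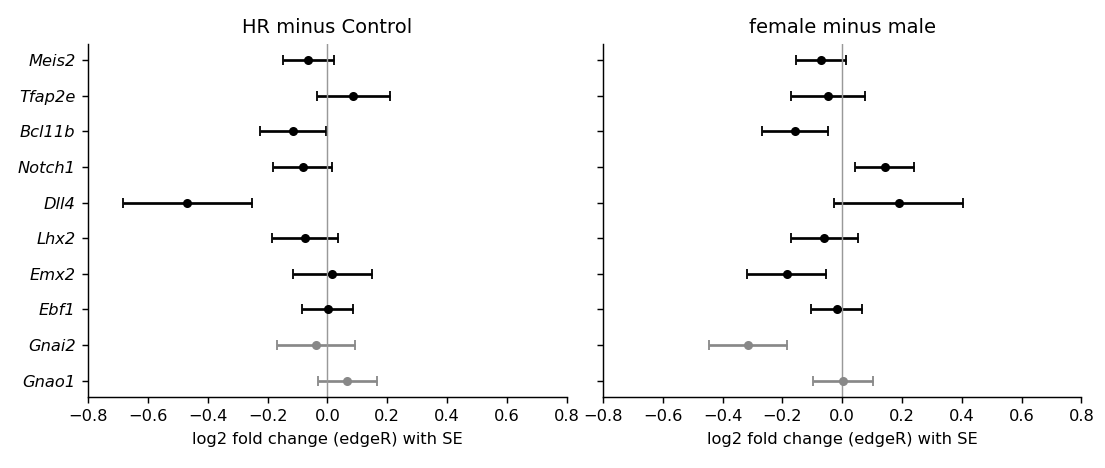
Log2 fold change of each gene with its standard error from edgeR, for HR minus Control (left) and female minus male (right), with the reference genes in grey. All members lie within 0.2 of 0 in both comparisons except Dll4 between linetypes, at -0.47 (SE 0.22).

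Each sex was then taken alone. In the 8 male libraries edgeR called 0 of the 8 genes and 0 of 16361 genes tested (1.12% at an unadjusted p under 0.05, with 0 of the 8 among them), and DESeq2 called 0 of the 8 and 11 genes in all (0.0674% of those tested). In the 8 female libraries edgeR called 0 of the 8 and 0 of 16326 (1.94% unadjusted, 0 of the 8), and DESeq2 called 0 of the 8 and 5 in all (0.0307%). A term for the difference of the HR effect between sexes called none of 16507 genes in edgeR and none of 16461 in DESeq2, with 65 (0.394%) at an unadjusted p under 0.05 and no member among them. Dll4 averaged 3.65 ± 1.10 CPM in Control and 2.55 ± 0.456 CPM in HR males, and 4.05 ± 1.14 and 3.01 ± 1.46 CPM in females (SD, n = 4 each).

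Between the sexes, no member was called either (0 of 8 by edgeR, 0 at an unadjusted p under 0.05 and 0 by DESeq2), against 0.188% of all genes in edgeR, 8.08% unadjusted and 1.11% in DESeq2. With line as a block, 0.545% of all genes and none of the 8 were called. Emx2 was lower in females in 6 of 8 lines, by 0.19 on the log2 scale (SE 0.13), and its unadjusted p was 0.182, or 0.0284 with the block, where 16.7% of all genes had an unadjusted p under 0.05. The widest gap of Emx2, -0.74, was that of Control line 5, and without that line the block gave -0.14 (SE 0.062) with an unadjusted p of 0.0499 in edgeR and 15.3% of all genes. The reference Gnai2 was lower in females in 8 of 8 lines, a pattern that 1.81% of genes shared, with a log2 fold change of -0.31 (SE 0.13, adjusted p = 0.535, and 0.0795 with the block). Gnao1 was lower in 4 of 8 lines, with a log2 fold change of 0.0031 (SE 0.10). The sexes were deposited in separate tables, so sex and the processing of a table cannot be told apart.

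The members differed most among the 8 lines, with HR and Control lines alike entering as lines. A test over the 8 lines, with the male and female pool of a line as its 2 samples and sex as a covariate, called 4 of the 8 genes, against 26.3% of all genes tested (4344 of 16507). They were Ebf1 (adjusted p = 0.00986 in edgeR), Tfap2e (0.0169), Dll4 (0.0206) and Lhx2 (0.0276). Emx2 (0.0659), Meis2 (0.0807), Bcl11b (0.129) and Notch1 (0.227) did not pass.

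The highest and lowest line means differed by 2.47 times for Dll4 (Control line 5 at 4.81 CPM, HR line 8 at 1.95 CPM) and by 1.58 times for Tfap2e (HR line 8 at 87.3 CPM, HR line 3 at 55.4 CPM). Lhx2 differed by 1.56 times (Control line 2 at 226 CPM, HR line 3 at 145 CPM) and Ebf1 by 1.33 times (Control line 1 at 508 CPM, Control line 4 at 383 CPM). Neighbours in these orders mostly could not be separated. With the mean of each sex subtracted from log2 CPM, the pools of the 7 neighbouring pairs of lines did not overlap in 2 for Tfap2e, Dll4 and Lhx2. For Ebf1 they did not overlap in 3. For Ebf1 the upper 5 lines, Control 1 and 2 and HR 6, 7 and 8, lay between 449 and 508 CPM, and Control lines 4 and 5 and HR line 3 between 383 and 395 CPM.

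These calls depended in part on single lines. Ebf1 was called in 8 of 8 fits that left out 1 line, Tfap2e and Dll4 in 7 and Lhx2 in 6. Without HR line 8 only Ebf1 was called, while 15.4% of all genes were. Without Control line 5, the line of the library that stood apart, 7 of the 8 were called, all but Notch1, against 27.3% of all genes, and DESeq2 on all lines called the same 7, where it called 42.7% of all genes. The alignment accepted no mismatch, so reads over a base at which a line differs from the reference were not counted, and the part of such bases in these line differences was not tested.

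Markers of other cells also moved among lines. All 11 endothelial markers were called in the test over lines, which called 26.3% of all genes. Their sum ran from 109 to 228 CPM over Control lines and from 75.1 to 209 CPM over HR lines. The 7 stromal markers were also all called, with sums of 1480 to 3630 CPM in Control lines and 1210 to 4000 CPM in HR lines. Of the markers of main olfactory neurons 3 of 5 were called, of ciliated respiratory cells 0 of 4, of cartilage cells 3 of 4, and of ensheathing glia and Schwann cells 3 of 4. Within the olfactory list, Cnga4 averaged 69.4 CPM and Cnga2 0.759 CPM over Control lines. Which cells gave the reads of that list was not tested. Between HR and Control no gene of these lists was called, and the median log2 fold change over all genes was 0.003. All 11 endothelial genes had a log2 fold change below 0 (median -0.35), as had all 4 genes of ciliated respiratory cells (median -0.33) and 6 of the 7 stromal genes (median -0.16).

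Dll4 was set against the vessel markers. Its line means and the mean log2 CPM of the 11 endothelial markers had r = 0.90 and rho = 0.83 over 8 lines (exact permutation p = 0.0025 and 0.0154, adjusted over the 6 relations with other cell markers 0.015 and 0.0923). Without Control line 5 and HR line 3, the 2 lines farthest from the median, r was 0.85 over 6 lines (adjusted p = 0.208 in the exact permutation test). Among 14812 genes with a mean of at least 1 CPM, the pattern most like that of Dll4 was that of Cldn5, a tight junction gene of that marker list (r = 0.996), then Car13 (0.989) and Sorcs2 (0.977). Notch1 had r = 0.73 with the endothelial markers (adjusted p = 0.0501 in the exact permutation test), and 0.52 over 6 lines. The stromal markers had their widest gap between the same sets of lines as the endothelial ones, with Control lines 4 and 5 and HR line 3 above. Those lines also had the highest means of Dll4, and its relation with the stromal list was not tested. Dll4 is also a known gene of endothelial cells, and how much of its reads came from vessels was not tested.

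Ebf1 and Meis2 fell where stromal markers rose. Over 8 lines, r with the mean log2 CPM of the 7 stromal markers was -0.86 for Ebf1 (rho = -0.64) and -0.83 for Meis2 (rho = -0.76), each with an adjusted p of 0.0305 for r in the exact permutation test. The adjusted p for rho was 0.144 and 0.11. Without Control line 4 and HR line 3, r was -0.67 and -0.74 over 6 lines, and both adjusted p were above 0.05 in the exact permutation test (0.26 and 0.246). B cells, which use Ebf1, left few reads. Their 6 markers summed to 1.19 to 10.1 CPM, and Pax5 was at 0 in 6 libraries. The mean of the 5 markers tested, without Pax5, had r = -0.26 with Ebf1 (exact permutation p = 0.569).

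**Figure D4:**
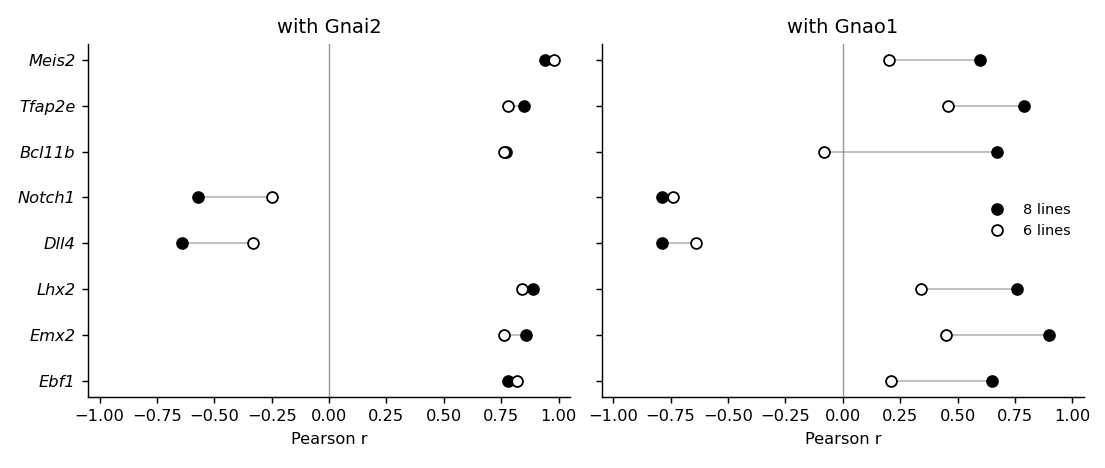
Pearson r of each gene with Gnai2 (left) and Gnao1 (right) over the line means of log2 CPM of 8 lines (filled) and over 6 lines without the 2 lines farthest from the median of the reference (open). The relations with Gnai2 are at or above 0.76 for 6 genes in both, while those with Gnao1 shrink, and Bcl11b passes from 0.67 to -0.08.

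The relation of each factor to the neuron layers was read from the 8 line means of log2 CPM, in 16 relations with Gnai2 and Gnao1 and 1 of ratios. The 8 points share libraries and scaling, and the lines formed no even series. Gnai2 and Gnao1 had r = 0.73 with each other, so they are not separate readouts of the layers. The 2 VSN markers tested had a median r of 0.80 with Gnai2 and 0.61 with Gnao1. For Gnai2 the widest gap between neighbouring lines was 37.2% of the range and set Control lines 4 and 5 and HR lines 3 and 6 below the other 4. For Gnao1 it was 43.8% and set Control line 5 and HR line 3 below the other 6. Relations within sets of 4 or 2 lines are too small to test.

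Meis2 had the highest r with the apical gene Gnai2, 0.94 (exact permutation p = 0.00414, adjusted 0.0235, rho = 0.79, adjusted 0.0678, n = 8), and only 0.509% of the other genes tested had a higher r. Without Control line 5 and HR line 8 it was 0.98 (adjusted p = 0.0472 in the exact permutation test). With the basal gene Gnao1, Meis2 had r = 0.60 (exact permutation p = 0.126, adjusted 0.137). The plot of line means shows Control lines 1 and 2 and HR lines 7 and 8 high for both Meis2 and Gnai2, and the other 4 lines low for both.

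Tfap2e, the basal factor, was related to both references. Its r was 0.85 with Gnai2 and 0.79 with Gnao1 (adjusted p = 0.0376 each, exact permutation test, n = 8; rho = 0.86 and 0.79, adjusted 0.0678 each). The r of 6.06% of genes with Gnai2 and of 8.88% with Gnao1 was higher. Over 6 lines r fell to 0.78 and 0.46, and neither passed, and in female libraries alone r was 0.82 with Gnai2 and 0.88 with Gnao1. Bcl11b had r = 0.77 with Gnai2 (adjusted p = 0.0245, exact permutation test) and 0.67 with Gnao1 (0.0901). The difference between a gene's r with Gnai2 and its r with Gnao1 was not tested.

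Lhx2 and Emx2 were related to both references over 8 lines. Lhx2 had r = 0.89 with Gnai2 (adjusted p = 0.0135, exact permutation test, n = 8), and its rho of 0.93 was the one rank correlation of the 17 past the threshold (adjusted p = 0.0379 in the exact permutation test). With Gnao1 its r was 0.76 (0.0494). Emx2 had r = 0.86 with Gnai2 (0.0194) and 0.90 with Gnao1 (0.0245), and 5.01% and 1.97% of genes had a higher r. Without Control line 5 and HR line 3, r with Gnao1 was 0.34 for Lhx2 and 0.45 for Emx2, and neither passed (adjusted p = 0.692 and 0.571, exact permutation test, 6 lines). Ebf1 had r = 0.78 and 0.65, and neither passed (adjusted p = 0.0602 and 0.107, exact permutation test).

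Notch1 and Dll4 had negative values, as had markers of other cells, with a median r of -0.85 with Gnai2 and -0.81 with Gnao1 over the endothelial list and of -0.74 and -0.69 over the stromal list. With Gnao1, r was -0.79 for both (adjusted p = 0.0376 each, exact permutation test, n = 8; rho = -0.79 each, adjusted 0.0678), a value that 6.89% and 7.11% of genes undercut. With Gnai2, r was -0.57 and -0.64 (adjusted p = 0.137 and 0.107, exact permutation test). The receptor and its ligand had r = 0.84 with each other. Over the 6 lines without Control line 5 and HR line 3, r with Gnao1 was -0.74 and -0.64, and neither passed.

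In all, 10 of the 17 relations passed by r and 1 by rho. The same 17 gave 10 passes in the female libraries alone and 0 in the males alone, 2 without the 2 farthest lines, and 5 without the female library of Control line 5. In the female libraries 0 passed without that line. With the summed Vmn1r and Vmn2r counts in place of Gnai2 and Gnao1, 0 passed, although Meis2 still had r = 0.91. Within lines, female minus male, 2 passed, Dll4 with Gnao1 at -0.91 and Emx2 with Gnao1 at 0.87 (adjusted p = 0.0356 each, exact permutation test), while Meis2 with Gnai2 was at 0.24. Without Control line 5 these became -0.93, 0.80 and -0.26, and 0 passed. Over all genes tested the median r was 0.05 with Gnai2 and 0.02 with Gnao1.

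**Figure D5:**
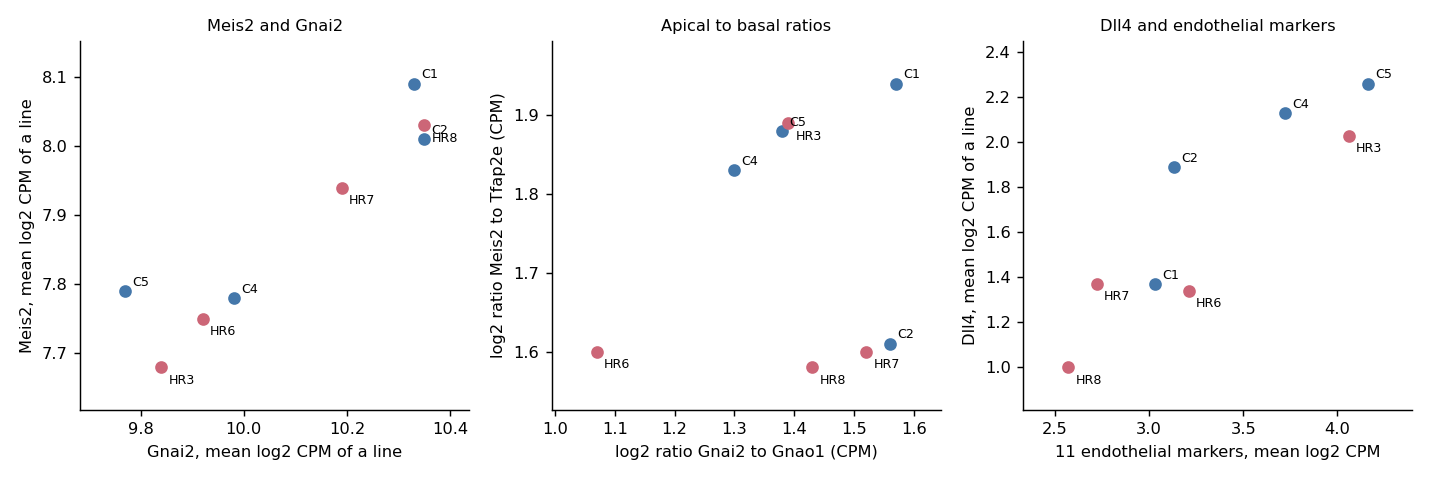
Line means (log2 CPM) of Meis2 against Gnai2 (left), the log2 ratio of Meis2 to Tfap2e against that of Gnai2 to Gnao1 (middle), and Dll4 against the mean of 11 endothelial markers (right), with Control lines in blue and HR lines in red. Over 8 lines r is 0.94 on the left, 0.12 in the middle and 0.90 on the right.

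The ratio of the apical factor Meis2 to the basal factor Tfap2e was set against that of Gnai2 to Gnao1. On the log2 scale of CPM the first was 1.94, 1.61, 1.83 and 1.88 in Control lines 1, 2, 4 and 5 and 1.89, 1.60, 1.60 and 1.58 in HR lines 3, 6, 7 and 8. The second was 1.57, 1.56, 1.30 and 1.38 in the Control lines and 1.39, 1.07, 1.52 and 1.43 in the HR lines. The Meis2 to Tfap2e ratio fell in 2 sets, HR lines 6, 7 and 8 with Control line 2 low and the other 4 lines high, with a gap of 60.4% of the range. Over 8 lines r was 0.12 and rho 0.14 (exact permutation p = 0.799 and 0.752), -0.35 in the male libraries and 0.54 in the female ones. Without Control line 1 and HR line 6 it was -0.77 over 6 lines (adjusted p = 0.23 in the exact permutation test), so the sign changed with 2 lines left out.

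The layers were described further by fixed marker lists. Of 5 apical markers, Gnai2 and Ncam2, a cell adhesion gene, were called among lines, where 26.3% of all genes were called. Of 5 basal markers, Kirrel3, also an adhesion gene, and the receptor gene Vmn2r1 were called. Kirrel3 ran from 36.0 CPM in Control line 4 to 152 CPM in HR line 6, and Vmn2r1 from 120 CPM in Control line 4 to 249 CPM in Control line 2. Neither list had a gene called between HR and Control or between sexes. The median r of the apical list was 0.68 with Gnai2 and 0.57 with Gnao1. That of the basal list was 0.33 with Gnai2 and 0.43 with Gnao1, so the apical list had the higher value with both references. Each reference was left out of the median with itself but counted in its list against the other. These medians thus rest on unlike sets of genes, and their differences were not tested.

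The rest of the Notch pathway gave no call between linetypes. Of 22 genes, 21 were tested and 0 were called between HR and Control by edgeR, with a median log2 fold change of -0.03. An unadjusted p under 0.05 was found for 1 of the 21, against 3.3% of all genes. That gene was Mfng, a glycosyltransferase that modifies Notch (log2 fold change -0.27, SE 0.12), and it was picked out after its values were seen. Among lines 6 of 21 (28.6%) were called, near the 26.3% of all genes. They include the receptors Notch2 (47.6 CPM in HR line 8 to 85.8 CPM in HR line 3) and Notch4 (3.36 CPM in HR line 7 to 7.30 CPM in HR line 3), the DNA-binding effector Rbpj (20.7 CPM in Control line 1 to 38.1 CPM in Control line 2) and the glycosyltransferase Rfng. Between the sexes 0 were called, and 3 of the 21 had an unadjusted p under 0.05, against 8.08% of all genes. These were the targets Hes5 and Nrarp and the ligand Jag2, all higher in females and also picked out after their values were seen.

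Among 14 other factors of olfactory neurogenesis, 8 (57.1%) were called among lines, against 26.3% of all genes. Between HR and Control or between sexes 0 were called by edgeR. Ebf3, a sister of Ebf1, ran from 335 CPM in HR line 3 to 507 CPM in Control line 2. Neurod1, a bHLH factor of late precursors, was picked out after its values were seen. It was the gene of the list with an unadjusted p under 0.05 between linetypes, a mark that 3.3% of all genes reached. Its mean was 6.99 ± 0.606 CPM in Control and 5.55 ± 0.676 CPM in HR (SD, n = 4 lines each, adjusted p = 0.9997 in edgeR). Of 17 paralogs of the members, 13 were tested and 8 (61.5%) were called among lines, against 26.3% of all genes. Among them were Bcl11a (56.4 CPM in HR line 3 to 83.9 CPM in Control line 1), Meis3 and Emx1. The lists share genes, with called paralogs such as Notch2 and Notch4 also in the Notch list and Emx1 and Ebf3 in that of neurogenesis. The shares called in these lists are therefore not independent. No paralog was called between HR and Control, with 0 at an unadjusted p under 0.05.

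The genes whose line pattern was most like that of each member were found over the same 14812 genes and 8 lines. For Meis2 they were Sephs1 (r = 0.973), Clpb and Psip1, for Tfap2e they were Ensa (0.991), Tusc3 and Pdia3, and for Bcl11b they were Arpc4 (0.972), Irf2 and Zdhhc9. For Notch1 they were Serinc5 (0.973), Raph1 and Lrrc4b. For Lhx2 they were Gm5126 (0.982), 1810026J23Rik and Leprot, for Emx2 they were Tpst1 (0.991), Kcna5 and Zbtb8os, and for Ebf1 they were 9230114K14Rik (0.981), E230013L22Rik and Hecw2. The count of genes with r above 0.9 ran from 20 for Bcl11b to 780 for Tfap2e, and no member appeared among the 3 nearest genes of another.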

How the data were processed

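The 16 libraries came from VNO RNA of 8 lines, each with a pool of 3 males and a pool of 3 females, and gave single-end reads of 75 nucleotides. The authors aligned the reads to GRCm38/mm10 with STAR 2.6.1d, accepting no mismatch and dropping reads with more than 1 location. The deposited counts are reads per gene without normalization, in 1 table per sex. The annotation and the use of strand in counting are not given in the sources used here. The deposited RPKM values are scaled by gene length and library size, as reported by Cuffdiff of Cufflinks. Against TMM-scaled counts, the RPKM of the 2 sexes differed by a constant of -0.061 on the log2 scale, and no library departed from its own table by more than 0.018. The TMM factors ran from 0.8767 to 1.077, so within a sex the RPKM carry a scaling between libraries close to TMM. Results on log2(RPKM + 1) are therefore no separate check of that scaling. The 4 entries under 2 repeated names were left out of each count table, and 24407 genes with counts remained. The male count table also holds 4 entries for reads not counted on genes (34.9% to 37.3% of its total), which were left out. Totals on genes ran from 15998552 to 70875276 per library.

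Counts were tested with edgeR 4.0.16 (quasi-likelihood, TMM, filterByExpr with a minimum count of 10), and p-values were adjusted by Benjamini-Hochberg over all genes tested, with a threshold of 0.05. CPM are TMM-scaled, and log2 CPM carry a prior count of 2. Comparisons were HR against Control, overall and in each sex, female against male, their interaction, and differences among lines. Line means were compared, and correlated, by exact two-sided permutation tests over 8 lines, 23 relations in all (17 and 6). Ranks for rho were taken with scipy 1.17.1. DESeq2 1.42.0, limma 3.58.1 and the alternatives given in the closing section were also run. Male and female pools of a line deviated together from their group means (r = 0.321 to 0.708 over genes, with line numbers from the labels), so line was also used as a block. No pair of libraries of a group agreed within sampling noise. Xist and Ddx3y matched the labelled sex in all 16 libraries. The scripts were tested on simulated data. The genes named are the members, Gnai2 and Gnao1, up to 4 genes per marker list by smallest p (unadjusted p under 0.05 for HR, or adjusted under 0.05 for sex or lines), and the 3 genes of most similar pattern to each member. Outside this rule, the T and B cell genes Cd3d, Cd3e, Cd3g, Lck and Pax5 and the tissue markers Omp and Trpc2 were named after their values were seen. The same holds for Mfng, Neurod1, Hes5, Nrarp and Jag2. The members and lists were chosen with earlier results of these data known. Since 1 pool per sex and line was sequenced, p-values measure the spread between pools.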

Additional observations from a re-analysis of the deposited data

Results flagged for a closer look

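Bcl11b in the male pool of Control line 1 stood apart from the other Control males, at 6.22 log2 CPM against 5.67 to 5.72 log2 CPM. The gap to the nearest library was 0.918 of the group's range, above Dixon's 95% critical value for 4 samples. The female pool of the same line was also the highest of the Control females. Of 32 groups of 4 libraries tested this was the one past the limit, and chance passes about 1 in 20.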

How the results depend on the processing

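No member was called between HR and Control, between sexes or for their interaction under any alternative run. In the exact permutation test of line means, 1 alternative gave an unadjusted p under 0.05, that of Bcl11b without Control line 5. There, Control lines 1, 2 and 4 (6.05, 5.74 and 5.70 log2 CPM) lay above all HR lines (5.48 to 5.69 log2 CPM). The fold changes of Ebf1, Emx2, Notch1, Lhx2, Tfap2e and Bcl11b between linetypes were small enough to change sign, and those of Meis2 and Dll4 were not. For Ebf1 it was -0.0041 in DESeq2, -0.0040 with DESeq2 size factors, -0.01 without a filter and -0.01 on line sums, and Emx2 had -0.01 on line sums. Leaving out 1 line, edgeR gave -0.07 to 0.06 for Ebf1, -0.09 to 0.12 for Emx2, -0.16 to 0.0048 for Notch1, -0.16 to 0.05 for Lhx2 and -0.0033 to 0.20 for Tfap2e, and differences of line means ran from -0.0047 to 0.21 for Tfap2e, -0.20 to 0.02 for Bcl11b, -0.17 to 0.0028 for Notch1, -0.16 to 0.05 for Lhx2, -0.10 to 0.14 for Emx2 and -0.06 to 0.07 for Ebf1. The line means of Dll4 differed by -0.68 to -0.33. The numbers of all genes called moved more. Between linetypes they were 30 in DESeq2, 0 with line as a random effect and 0 on line sums, and 1 to 17 without 1 line. In males DESeq2 called 11 and in females 5, with 0 to 1 and 0 to 2 without 1 line. Between sexes DESeq2 called 182, the fit without a filter 19, and fits without 1 line 13 to 25. With line as a replicate block, the pairing of pools called 90 genes between sexes, and it changed no call of a member. Among lines DESeq2 called 7042 genes, and fits without 1 line 2556 to 4522.

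The relations with Gnai2 and Gnao1 were the least stable. In male libraries alone the r values that lost significance were 0.81 (Meis2), 0.87 (Tfap2e), 0.71 (Bcl11b), 0.90 (Lhx2) and 0.88 (Emx2) with Gnai2, and 0.67 (Tfap2e), -0.09 (Notch1), -0.80 (Dll4), 0.60 (Lhx2) and 0.67 (Emx2) with Gnao1, and the ratio gave -0.35. In females alone Bcl11b had 0.73 with Gnai2 and 0.77 with Gnao1. With linetype means removed, Tfap2e (0.78), Notch1 (-0.79) and Lhx2 (0.81) with Gnao1 lost significance, Bcl11b with Gnao1 (0.75) and Dll4 with Gnai2 (-0.82) gained it, and the ratio gave -0.04. With summed receptor counts as references, r was 0.91 (Meis2), 0.72 (Tfap2e), 0.54 (Bcl11b), 0.62 (Lhx2) and 0.60 (Emx2) on the apical side and 0.77 (Tfap2e), -0.60 (Notch1), -0.77 (Dll4), 0.54 (Lhx2) and 0.59 (Emx2) on the basal side. Without the 2 farthest lines r was 0.78 (Tfap2e), 0.76 (Bcl11b) and 0.76 (Emx2) with Gnai2, and 0.46 (Tfap2e), -0.08 (Bcl11b), -0.74 (Notch1), -0.64 (Dll4), 0.34 (Lhx2) and 0.45 (Emx2) with Gnao1, and the ratio gave -0.77. For female minus male within lines, chosen after seeing the data, r was 0.24 (Meis2), 0.76 (Tfap2e), 0.56 (Bcl11b), 0.60 (Lhx2) and 0.61 (Emx2) with Gnai2, 0.20 (Tfap2e), -0.45 (Notch1), -0.15 (Lhx2) and -0.05 (Ebf1) with Gnao1, and -0.63 for the ratio. The causes were not tested.

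Leaving out 1 line, or the female library of Control line 5 (also chosen after seeing the data), r with Gnai2 ran from 0.87 to 0.98 (Meis2), 0.81 to 0.93 (Tfap2e), 0.65 to 0.84 (Bcl11b), -0.81 to -0.50 (Dll4), 0.85 to 0.93 (Lhx2), 0.80 to 0.92 (Emx2) and 0.73 to 0.88 (Ebf1). With Gnao1 it ran from 0.44 to 0.83 (Meis2), 0.70 to 0.85 (Tfap2e), -0.90 to -0.70 (Notch1), -0.86 to -0.70 (Dll4), 0.67 to 0.90 (Lhx2) and 0.82 to 0.95 (Emx2), and for the ratio from -0.33 to 0.30. Passes fell from 10 to 0 without HR line 3, to 1 without HR line 7, to 2 without Control line 5, to 3 without HR line 8, to 4 without Control line 1, to 6 without Control line 4 and to 8 without Control line 2, and rose to 11 without HR line 6. Without Control line 5, passes in female libraries went from 10 to 0 and those within lines from 2 to 0 (chosen after seeing the data). Of the relations with other cells, males alone gave 0.27 for Notch1 and 0.81 for Dll4 with endothelial markers, -0.83 for Ebf1 and -0.60 for Meis2 with stroma. Without the 2 farthest lines these were 0.52, 0.85, -0.67 and -0.74, and within lines 0.16, 0.74, -0.42 and 0.01, with 0.48 for Ebf1 and B cells. On log2(RPKM + 1), Notch1 with endothelial markers passed at 0.79, and Bcl11b with T cells was 0.20. Leaving out 1 line or that female library gave 0.61 to 0.85 for Notch1, 0.86 to 0.95 for Dll4 and -0.30 to 0.02 for Bcl11b. It gave -0.95 to -0.81 for Ebf1 and -0.92 to -0.76 for Meis2 with stroma. Of the 8 fits without 1 line, Dll4 with endothelial markers passed in 5 and Notch1 in 1. With stroma, Meis2 passed in 2 of 8 and Ebf1 in 1 of 8. Depth limits Dll4 most, with 68 to 208 reads per library.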
